A study of Caenorhabditis elegans with 15 samples.

Results

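Cytochrome P450 enzymes are heme-containing monooxygenases that insert 1 atom of molecular oxygen into lipids, steroids and foreign compounds. Electrons reach most of them from NADPH through a cytochrome P450 reductase, and some reactions also draw on cytochrome b5. In nematodes the family takes part in the metabolism of plant compounds and anthelmintics as well as in that of fatty acids, and many of its genes are active in the intestine. Fraction H3 is a fraction enriched in oligomeric procyanidins (tannins built from flavan-3-ol units) from leaves of Combretum mucronatum, and RE is the crude hydro-ethanolic leaf extract. The question addressed here is which genes of this family differed in transcript level after contact with these preparations.

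Members were all probe sets whose gene symbol starts with cyp- followed by a digit, given with the current RefSeq symbol. This rule found 74 genes with 1 probe set each, among the 25478 genes that the arrays measured with a probe set of their own. RefSeq (assembly WBcel235) lists 80 such genes. The other 6 are not analysed here, namely the pseudogenes cyp-13A9, cyp-29A1, cyp-31A1, cyp-34A3 and cyp-35D2 and the protein-coding cyp-31A5. One of the measured genes, cyp-25A5, is a pseudogene. By family, 42 genes belong to families of the CYP2-like clan (cyp-14, cyp-33, cyp-34, cyp-35 and cyp-36), 20 to the CYP3-like clan (cyp-13, cyp-25 and cyp-43) and 10 to the CYP4-like clan (cyp-29, cyp-31, cyp-32, cyp-37 and cyp-42), while cyp-44A1 is of the mitochondrial type and cyp-23A1 was not assigned. Of the 74 genes, 41 lie on chromosome V.

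The series holds 15 Affymetrix Gene 1.0 ST arrays of total RNA from whole worms of the wild-type strain N2 (Bristol), which had been grown on OP50 bacteria to young adults and kept for 6 h at 20 °C in M9 buffer. The 5 groups had 3 arrays each: a negative control with 1% DMSO, the solubiliser that the test solutions held as well, the procyanidin fraction at 0.02 mg/mL (H3 0.02), at 0.2 mg/mL (H3 0.2) and at 2 mg/mL (H3 2), and the crude extract (RE). For RE the sample titles and the methods give 0.2 mg/mL, whereas the treatment field gives 2 mg/mL, and the former was used. Each array stands for 1 pool of worms, and the methods call the replicates biological. With 3 arrays per group, precision is limited by their number. Values are log2 expression values after RMA, a robust multi-array average. Calls of higher or lower expression required a fold-change of at least 2 and, in limma, a p-value that stayed at or under 0.05 after Benjamini-Hochberg adjustment over all 29317 probe sets of the comparison. Errors are SD over 3 arrays for levels and 95% confidence intervals for differences.

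The labels name no batch, but the arrays fell into 2 sets on the principal component with 52.0% of the variance, set A with 8 and set B with 7 arrays. Replicates 1 and 2 of the control, H3 0.02 and H3 2 fell in set A and their replicate 3 in set B. Of H3 0.2 and RE only replicate 1 fell in set A and replicates 2 and 3 in set B. Within groups, 9 of 14 oocyte markers were called higher in set B. Called lower were 74 of 153 cuticle collagens, 4 of 4 major sperm protein genes and 4 of 11 intestine markers. In the other direction, 4 collagens and 1 intestine marker were called higher in set B. Over all probe sets, 3.16% were called higher and 5.65% lower in set B. Set B was mixed for the sperm genes. Their mean level was 7.26 on replicate 3 of H3 0.2 and 7.04 on replicate 3 of RE. It was 5.87 to 6.07 on the other arrays of set B and 7.24 to 8.06 on those of set A. In limma no marker of intestine, oocyte, sperm, yolk, muscle or neuron was called between a treatment and the control (at most 2 of a list at an unadjusted p under 0.05), and of the collagens 2 were called lower at H3 2. In whole-worm RNA, fewer cells of a type and less RNA per cell cannot be told apart. Differences were therefore also computed within each set and in a fit that takes the set as a block (the set-blocked fit).

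Many P450 genes gave little signal in these worms. The files carry no detection call, and the median of each array (3.54 to 3.65) was used as a mark below which a probe set was not shown to be above background. On this measure 22 members lay above the median on all 15 arrays and 38 on none (51.4%, against 41.4% of all probe sets). Of the 10 CYP4-like genes 8 were above it on all arrays, of the 42 CYP2-like genes 10 and of the 20 CYP3-like genes 3. The 38 genes below it throughout included 9 of 13 cyp-13 genes, 9 of 18 cyp-33 genes and 7 of 10 cyp-35 genes. A fold-change that starts from or ends at such a level may be too small, and none of these 38 genes was called in any comparison. Levels also depend on the probes, so that they are not ranked between genes.

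In each of the 4 treatments 1 member was called higher and 3 or 4 were called lower. The gene that rose was cyp-14A5 in every treatment, and the genes that fell in every treatment were cyp-34A9, cyp-37B1 and cyp-25A2. At H3 0.02 these 4 genes were 5.41% of the family, where 0.624% of all probe sets were called (0.304% higher and 0.321% lower). At H3 0.2 the 5 called members were 6.76% of the family, against 1.1% of all probe sets (0.46% higher and 0.641% lower). At H3 2 the 4 members called were again 5.41%, against 1.57% (0.665% higher and 0.901% lower). For RE the 5 members called were 6.76%, against 0.935% (0.399% higher and 0.536% lower). The median log2 fold-change over the 74 genes, of which 38 lay below the medians on all arrays, was −0.03, −0.05, −0.05 and −0.07 in H3 0.02, H3 0.2, H3 2 and RE, where that over all probe sets was between 0.00 and 0.02. In the set-blocked fit 4, 7, 5 and 6 members were called in the 4 treatments, where 1.39%, 2.22%, 3.09% and 2.07% of all probe sets were. The comparisons share the 3 control arrays, so that a gene called in all of them rests on the same control values.

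Groups that did not overlap were more often lower than higher within the family. At H3 0.02, 4 members had all treated arrays above all controls and 11 had them below (14.9% of the family), against 5.3% and 5.16% of all probe sets. At H3 0.2 the numbers were 3 above and 12 below (16.2%), against 7.32% and 6.18%. At H3 2 they were 4 above and 10 below (13.5%), against 8.69% and 7.13%. With RE they were 2 above and 13 below (17.6%), against 6.32% and 6.1%.

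**Figure D1:**
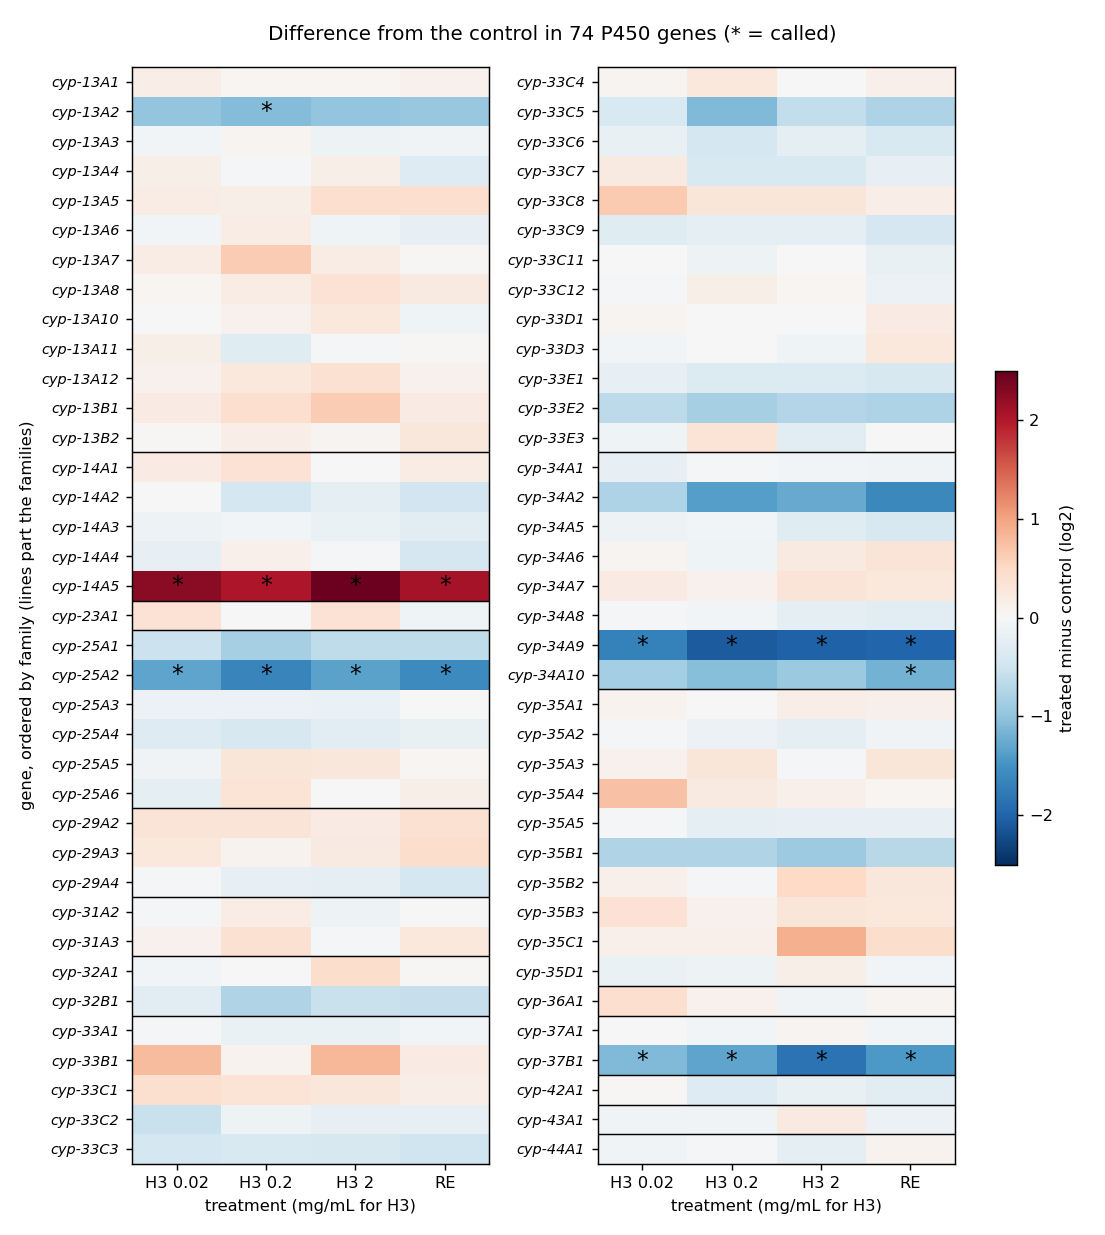
Log2 difference of each treatment (columns) from the control for the 74 P450 genes (rows, ordered by family), with calls marked by an asterisk. The rows of cyp-14A5 (red) and of cyp-34A9, cyp-37B1 and cyp-25A2 (blue) carry calls in all 4 columns, cyp-13A2 and cyp-34A10 in 1 column each, and most rows are pale.

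The family's only called rise was that of cyp-14A5, a gene of the CYP2-like clan whose substrate is not known. Its level was 5.35, 5.51 and 4.52 on control replicates 1 to 3. It was 7.89, 7.61 and 6.67 at H3 0.02, then 7.61, 6.87 and 6.96 at H3 0.2. At H3 2 it was 7.83, 8.05 and 6.89, and with RE 7.76, 7.04 and 6.82. All 12 treated arrays (6.67 to 8.05) thus lay above all 3 control arrays (4.52 to 5.51), and in every group the arrays of set B were the lower ones. The rise was 4.80-fold at H3 0.02 (log2 2.26, 1.39 to 3.14, adjusted p = 0.0183) and 4.05-fold at H3 0.2 (2.02, 1.14 to 2.89, 0.0242). It was 5.50-fold at H3 2 (2.46, 1.58 to 3.34, 0.00557) and 4.22-fold with RE (2.08, 1.20 to 2.96, 0.0226). Within set A the log2 differences were 2.32, 2.17, 2.51 and 2.33 in the same order and within set B 2.15, 2.39, 2.37 and 2.41. In the set-blocked fit the adjusted p was at most 4.84e-07 in each treatment. When only the 6 arrays of a comparison were fitted, no call remained (adjusted p = 0.192, 0.104, 0.0708 and 0.122).

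The call of cyp-14A5 at H3 2 did not depend on any single array, but the other calls did. At H3 0.2 it was lost without any one of the 6 arrays (adjusted p = 0.0528 to 0.098). At H3 0.02 it was lost without replicate 1 or 2 of H3 0.02 (0.105 and 0.0998) or replicate 1 or 3 of the control (0.0623 and 0.0566). With RE it was lost without replicate 1 or 2 of RE (0.0998 and 0.0667) or replicate 1 or 3 of the control (0.0669 and 0.0585). The methods' unmoderated test also lost the call at H3 0.02, H3 0.2 and with RE (adjusted p = 0.0542, 0.0573 and 0.0544). Over all alternatives the log2 difference stayed between 1.71 and 2.81. The other 4 genes of the subfamily, cyp-14A1 to cyp-14A4, lie close together on chromosome X, with 1 other gene between cyp-14A3 and cyp-14A4. They do not lie beside cyp-14A5, which is on chromosome V. None of them was called, and their differences in the 4 treatments ranged from −0.48 (cyp-14A2 with RE) to 0.37 (cyp-14A1 at H3 0.2).

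**Figure D2:**
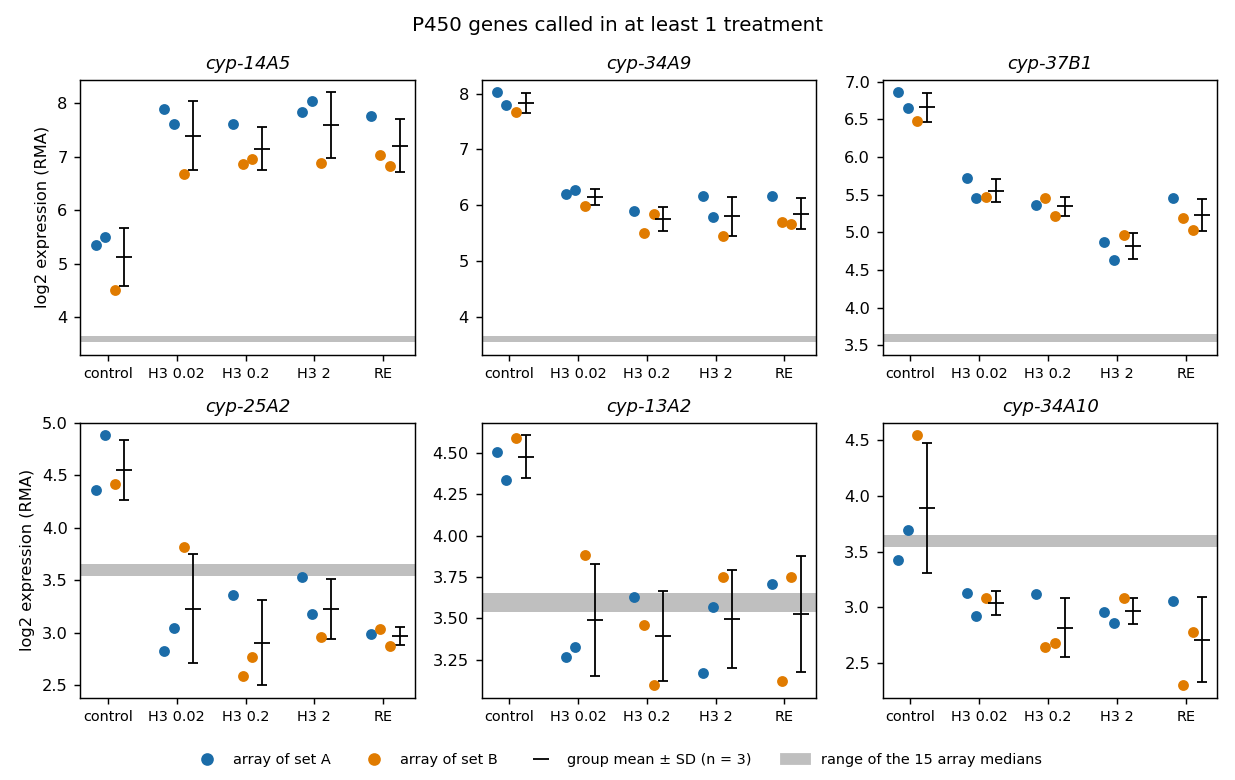
Log2 expression on each array for the 6 genes called in at least 1 treatment, by group (H3 in mg/mL), with blue points for arrays of set A, orange points for set B, and bars for the group mean ± SD (n = 3). In cyp-14A5 all treated arrays lie at 6.67 or higher and all controls at 5.51 or lower, and in the other 5 genes all treated arrays lie below all controls, for cyp-25A2, cyp-13A2 and cyp-34A10 mostly at or below the grey band of array medians (3.54 to 3.65).

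The cyp-34 and cyp-35 families of the CYP2-like clan include genes known to respond to foreign compounds in this worm. Among the 8 cyp-34A genes cyp-34A9 fell in all treatments. It stood at 8.03, 7.80 and 7.66 in the control. It stood at 6.20, 6.26 and 5.99 at H3 0.02. The values were 5.90, 5.50 and 5.85 at H3 0.2, 6.16, 5.79 and 5.45 at H3 2, and 6.16, 5.70 and 5.67 with RE. All 3 control arrays lay at 7.66 or higher, and no treated array exceeded 6.26. The level was 3.20-fold lower at H3 0.02 (adjusted p = 0.000983), 4.23-fold lower at H3 0.2 (0.000129), 4.09-fold lower at H3 2 (0.00011) and 3.96-fold lower with RE (0.000186). Within set A the differences ran from −2.01 to −1.68 and within set B from −2.21 to −1.67. Every call also held in the fit of 6 arrays (adjusted p = 0.0161 to 0.0375) and without any single array.

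Its neighbour cyp-34A10 was called with RE only, at 3.06, 2.30 and 2.78 against 3.43, 3.70 and 4.54 in the control (log2 fold-change −1.18, −1.75 to −0.61, adjusted p = 0.0492). The RE arrays lay below the array medians and so did control replicate 1. Set A gave a difference of −0.50 and set B one of −2.01. The call ended without control replicate 2 or 3 (adjusted p = 0.103 and 0.0796) and without replicate 1, 2 or 3 of RE (0.0541, 0.204 and 0.14). It was also lost in the fit of 6 arrays (0.399) and in the methods' unmoderated test (0.0879). The same held with an intensity trend in limma (0.0538), after repeated quantile normalisation (0.0659) and with arrays centred on their median (0.0651). In the other treatments the log2 fold-change was −0.84, −1.07 and −0.92 at H3 0.02, H3 0.2 and H3 2, with no call without a block. In the set-blocked fit cyp-34A10 was called at H3 0.2 as well (−1.09, adjusted p = 0.0252).

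The gene cyp-34A2 had large differences that the test did not call. It stood at 7.17, 7.28 and 6.27 in the control, 6.47, 6.37 and 5.55 at H3 0.02, 6.00, 5.15 and 5.43 at H3 0.2, 5.91, 6.13 and 4.93 at H3 2, and 5.96, 4.93 and 5.00 with RE. Arrays of set B were the lower ones in each group. Control and treated arrays overlapped at H3 0.02 only. The log2 fold-changes were −0.78, −1.38, −1.25 and −1.61, with adjusted p = 0.81, 0.156, 0.155 and 0.0892. In the set-blocked fit they were −0.78, −1.07, −1.25 and −1.30, and the last 3 were then called (adjusted p = 0.000149, 2.56e-05 and 3.73e-05). Control, H3 2 and H3 0.02 arrays of the same replicate number deviated together, and with the replicate number as a block cyp-34A2 was called at H3 2 as well (adjusted p = 0.0215). The remaining 5 genes of the subfamily had log2 fold-changes from −0.39 (cyp-34A5 with RE) to 0.33 (cyp-34A7 at H3 2), and of these only cyp-34A8 reached the array medians.

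Within the cyp-35 family limma called no gene (at an unadjusted p under 0.05, 1, 0, 2 and 0 were higher and 1 was lower in each treatment). In the same order, 7.18%, 10.6%, 12.9% and 9.38% of all probe sets passed that limit in either direction. The cyp-35A genes are widely used markers of exposure to foreign compounds in C. elegans and affect its fat stores. Of the 5 cyp-35A genes only cyp-35A2 reached the array medians, at 4.14, 3.44 and 4.23 in the control and between 3.45 and 4.10 on the 12 treated arrays. These ranges overlapped, and its log2 fold-changes were −0.03, −0.15, −0.24 and −0.08. The gene cyp-35A4 stood at 2.36, 1.99 and 2.36 at H3 0.02 against 1.48 to 1.56 in the control, a difference of 0.73 (0.42 to 1.03, adjusted p = 0.0293) that did not reach 2-fold and lay below the array medians in both groups. In the other treatments its difference was 0.23, 0.13 and 0.05.

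Lower values without a call were seen for cyp-35B1, a gene reported to depend on the transcription factor DAF-16. It stood at 3.83, 3.73 and 3.91 in the control and between 2.37 and 3.38 on the 12 treated arrays, with log2 fold-changes of −0.74, −0.74, −0.90 and −0.70 and an adjusted p of 0.0396 at H3 2. Treated and control arrays did not overlap, but each treated array lay below its array median. Without replicate 2 of H3 2 the gene was called at H3 2 (−1.06, adjusted p = 0.0395). For cyp-35C1 the values were 3.83, 3.15 and 4.64 in the control and 4.57, 5.00 and 4.72 at H3 2. These overlapped, and the difference was 0.89 at H3 2 and 0.12, 0.12 and 0.43 at H3 0.02, H3 0.2 and with RE. In set A alone cyp-35C1 was called at H3 2 (1.30, adjusted p = 0.0435). The other members, cyp-35A1, cyp-35A3, cyp-35A5, cyp-35B2, cyp-35B3 and cyp-35D1, lay below the medians on all arrays; cyp-35D1 is a gene linked to the metabolism of the anthelmintic thiabendazole.

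The CYP4-like clan holds relatives of the mammalian fatty acid omega-hydroxylases, and in it cyp-37B1 fell in all treatments. Its level was 6.86, 6.65 and 6.48 in the control and 5.73, 5.46 and 5.47 at H3 0.02. It was 5.36, 5.46 and 5.22 at H3 0.2, then 4.87, 4.63 and 4.96 at H3 2, and 5.46, 5.19 and 5.03 with RE. No treated array reached a control array, and all 15 arrays lay above their medians. The level was 2.16-fold lower at H3 0.02 (log2 −1.11, −1.44 to −0.78, adjusted p = 0.00323), 2.49-fold lower at H3 0.2 (−1.32, −1.65 to −0.98, 0.000575), 3.58-fold lower at H3 2 (−1.84, −2.17 to −1.51, 3.18e-05) and 2.70-fold lower with RE (−1.43, −1.77 to −1.10, 0.000293). The calls held without any single array. In the fit of 6 arrays the call at H3 0.02 was lost (adjusted p = 0.105) and the other 3 remained (0.0131 to 0.0455).

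The 3 concentrations of H3 gave group means of 5.55 ± 0.15, 5.35 ± 0.12 and 4.82 ± 0.17 for cyp-37B1, against 6.66 ± 0.19 in the control. All 3 arrays of H3 2 lay below all 3 of H3 0.02, and the difference between these groups was −0.73 (−1.07 to −0.40). Groups failed to overlap in this comparison in 8.19% of all probe sets, and the adjusted p was 0.292. The lowest array of H3 0.02 and the highest of H3 0.2 were both at 5.46. In the same clan cyp-37A1, cyp-29A2, cyp-32A1, cyp-32B1 and cyp-42A1 were above the medians on every array and were called in no comparison. Their log2 fold-changes ranged from −0.76 (cyp-32B1 at H3 0.2) to 0.45 (cyp-32A1 at H3 2). In the set-blocked fit cyp-32B1 differed by −0.50 at H3 0.2 and by −0.31 rather than −0.57 with RE, and cyp-37A1 by 0.14 rather than −0.07 at H3 0.2 and by 0.13 rather than −0.07 with RE. The gene cyp-29A3, known for the oxidation of long-chain polyunsaturated fatty acids, and cyp-29A4 lay below the medians throughout.

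**Figure D3:**
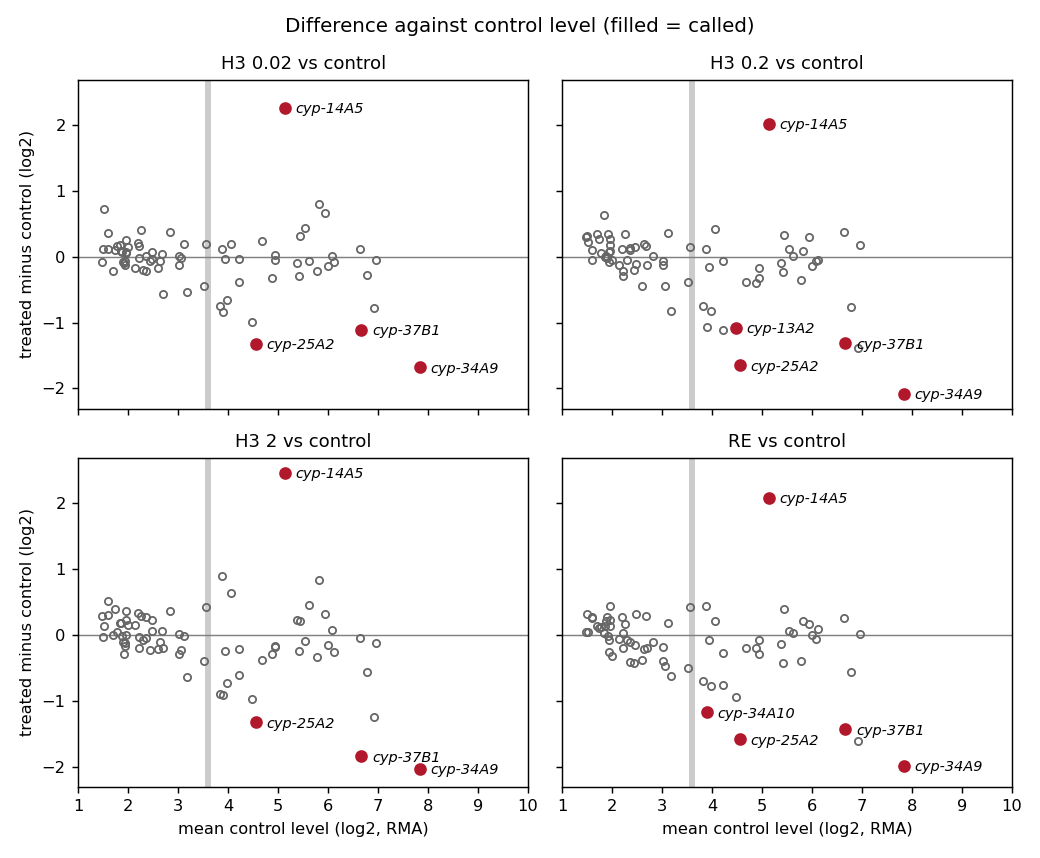
Log2 difference from the control (vertical axis) against the mean control level (horizontal axis, log2) of the 74 genes in each treatment, with called genes filled and named and the grey band marking the array medians (3.54 to 3.65). The called genes lie at control levels from 3.89 (cyp-34A10) to 7.83 (cyp-34A9), and no gene to the left of the band was called.

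In the CYP3-like clan, where the mammalian enzymes metabolise many drugs, cyp-25A2 fell. It stood at 4.36, 4.88 and 4.42 in the control, and on the treated arrays at 2.83, 3.04 and 3.82 (H3 0.02), 3.36, 2.59 and 2.76 (H3 0.2), 3.53, 3.18 and 2.96 (H3 2) and 2.99, 3.04 and 2.87 (RE). Treated and control arrays did not overlap. Only 1 treated array, replicate 3 of H3 0.02, was above its array median, so that the fold-changes are at best lower bounds. They were at least 2.51 at H3 0.02, 3.14 at H3 0.2, 2.51 at H3 2 and 3.00 with RE (adjusted p = 0.0408, 0.00696, 0.0187 and 0.00952).

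The calls of cyp-25A2 depended on single arrays except at H3 0.2. Within set A the log2 differences were −1.69, −1.26, −1.27 and −1.63 in H3 0.02, H3 0.2, H3 2 and RE, and within set B they were −0.60, −1.74, −1.45 and −1.46. With the replicate number as a block the call at H3 0.02 was lost (adjusted p = 0.051), as it was without replicate 1 or 2 of H3 0.02 (0.206 and 0.208) or control replicate 1, 2 or 3 (0.0971, 0.202 and 0.0616). At H3 2 it was lost without replicate 2 or 3 of H3 2 (0.0758 and 0.0615) or control replicate 2 (0.0891). With RE it was lost without control replicate 2 (0.0548), and at H3 0.2 it held without any single array. The call at H3 0.02 was also lost in the methods' unmoderated test (0.0857) and after repeated quantile normalisation (0.0547). Leaving out replicate 3 of both H3 0.2 and RE ended the calls at H3 0.02, H3 0.2 and with RE (0.102, 0.0646 and 0.077). In the fit of 6 arrays only the call with RE remained (0.0369, against 0.351, 0.0983 and 0.0772 for H3 0.02, H3 0.2 and H3 2).

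The gene cyp-13A2 was called at H3 0.2 only, but its values in the other treatments were close to the threshold. It stood at 4.51, 4.33 and 4.59 in the control and between 3.10 and 3.88 on the 12 treated arrays, which did not overlap with the control. Only 1, 1, 1 and 2 of the 3 arrays of H3 0.02, H3 0.2, H3 2 and RE lay above their array medians. The log2 fold-change was −1.08 at H3 0.2 (−1.57 to −0.59, adjusted p = 0.032) and −0.98, −0.98 and −0.95 at H3 0.02, H3 2 and with RE (adjusted p = 0.0875, 0.0396 and 0.0706). The call at H3 0.2 was lost without control replicate 1, 2 or 3 (0.125, 0.08 and 0.0743) or replicate 2 or 3 of H3 0.2 (0.0878 and 0.143), and in the fit of 6 arrays (0.115). It was also lost in the methods' unmoderated test (0.0555) and after repeated quantile normalisation (0.0511). At H3 0.2 set A gave a difference of −0.79 and set B one of −1.31. The other 12 cyp-13 genes were not called, with log2 fold-changes from −0.33 (cyp-13A4 with RE) to 0.63 (cyp-13B1 at H3 2 and cyp-13A7 at H3 0.2), and 9 of the family's 13 genes lay below the array medians throughout. Among the latter was cyp-13A12, known for its part in the worm's response to reoxygenation.

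Values of neighbouring genes can be set side by side. Of the 74 genes 45 lie in 11 clusters in which no more than 4 other genes part neighbouring members (RefSeq order). In the cluster cyp-13A1 to cyp-13A8 on chromosome II, cyp-13A2 differed from the control by −1.08 to −0.95, and the other 7 genes by −0.33 to 0.63, but 6 of these 7 were below the medians on all arrays, where a fall could be missed. In the cluster cyp-25A1 to cyp-25A4 on chromosome III, cyp-25A2 differed by −1.65 to −1.32, cyp-25A1, which was below the medians throughout, by −0.82 to −0.54, cyp-25A4 by −0.40 to −0.19 and cyp-25A3 by −0.16 to 0.00. In the cluster of 10 genes on chromosome V, cyp-34A9 and cyp-34A10 at one end differed by −2.08 to −0.84. Beside them cyp-34A8 differed by −0.28 to −0.04 on arrays where it was above the medians. Near the other end cyp-35B1 differed by −0.90 to −0.70, with its treated arrays below the medians. The differences between neighbours were not tested, and cross-hybridisation between such close relatives was not tested either.

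**Figure D4:**
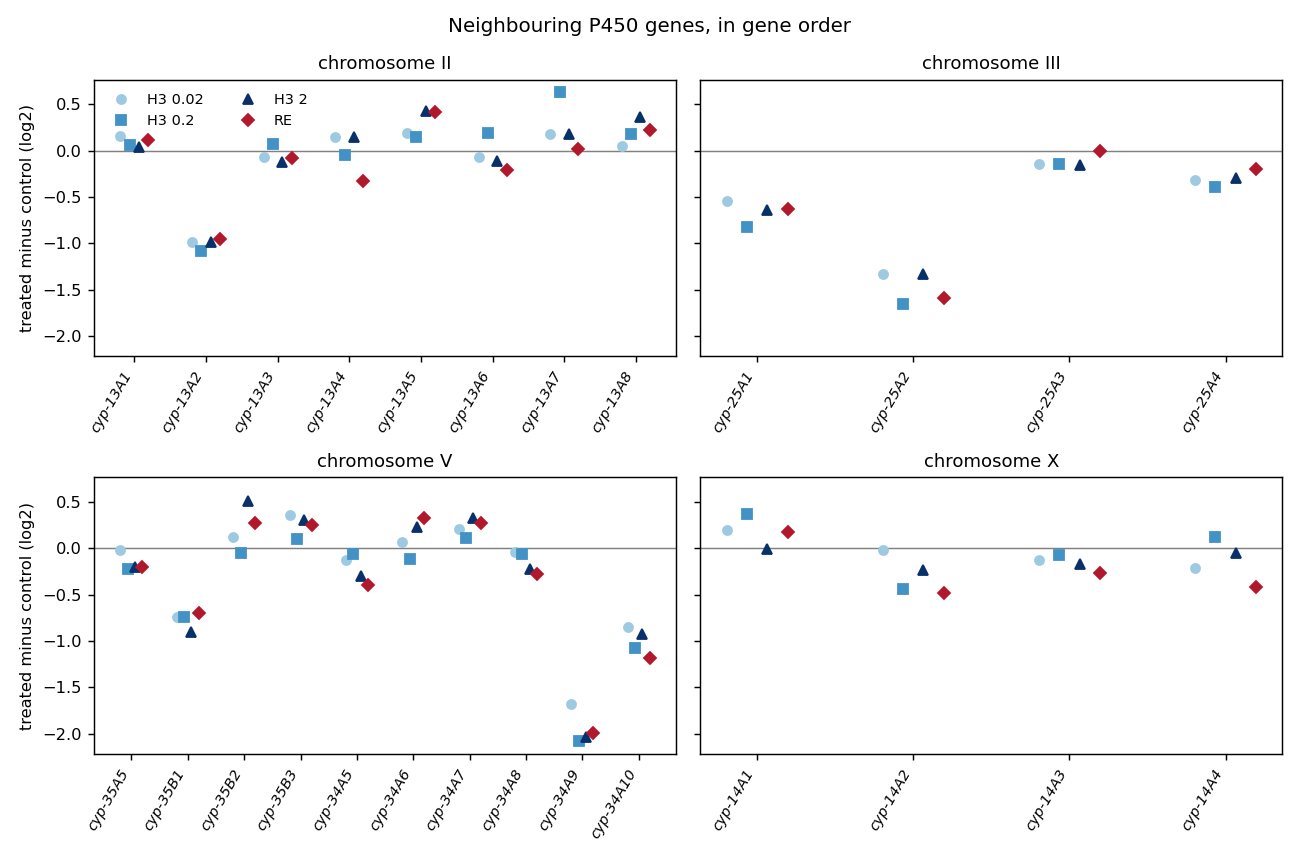
Log2 difference from the control for genes of 4 neighbour clusters in their order along the chromosome, with 1 symbol per treatment. Low points of genes with a call are cyp-13A2 (−1.08 to −0.95), cyp-25A2 (−1.65 to −1.32), cyp-34A9 (−2.08 to −1.68) and cyp-34A10 (−1.18 to −0.84). Without a call, cyp-35B1 (−0.90 to −0.70) and cyp-25A1 (−0.82 to −0.54) also lie low. The 4 genes cyp-14A1 to cyp-14A4 on chromosome X lie between −0.48 and 0.37.

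The 18 cyp-33 genes gave no call in limma in any treatment (at an unadjusted p under 0.05, 1 was higher at H3 0.02 and 2, 2, 1 and 2 were lower). Over all probe sets, 7.18%, 10.6%, 12.9% and 9.38% passed that limit in either direction. The largest difference among the cyp-33 genes was that of cyp-33C5 at H3 0.2 (−1.11), past 2-fold but not called. Its range was 3.51 to 4.77 in the control and 2.92 to 3.29 at H3 0.2, below the array medians. Within groups this gene was 0.72 lower in set B, which holds 2 of the H3 0.2 arrays and 1 control array. In the other treatments it differed by −0.39, −0.61 and −0.76. The gene cyp-33E2, an enzyme known to act on eicosapentaenoic acid in the worm's pharynx, stood at 3.97, 3.89 and 4.04 in the control and between 2.85 and 3.47 on the treated arrays. The groups did not overlap, its log2 fold-changes were −0.66, −0.82, −0.72 and −0.77, and its adjusted p was 0.0264, 0.0392 and 0.0429 at H3 0.2, H3 2 and with RE, without reaching 2-fold. All treated arrays were below their medians. Not called either were cyp-33C8, with 0.66, 0.30, 0.31 and 0.17, and cyp-33B1, with 0.79, 0.08, 0.83 and 0.21. In the set-blocked fit the differences of cyp-33B1 were 0.79, 0.77, 0.83 and 0.89 (adjusted p = 0.242, 0.197, 0.123 and 0.142). Also without a call were cyp-36A1, a gene that acts in the hypoxia pathway, with 0.43, 0.11, −0.09 and 0.07, cyp-43A1 with −0.10, −0.10, 0.23 and −0.15, and the mitochondrial cyp-44A1 with −0.08, −0.05, −0.25 and 0.08. The set-blocked fit turned the sign of cyp-43A1 at H3 0.2 and with RE (0.12 and 0.07) and that of cyp-44A1 with RE (−0.18).

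Within groups, 18 members differed between the array sets at an adjusted p of at most 0.05 (7 higher and 11 lower in set B, 24.3% of the family against 36.7% of all probe sets), among them cyp-14A5 (−0.91, adjusted p = 1.95e-06), cyp-34A2 (−0.92, 9.24e-07), cyp-32B1 (−0.79, 3.45e-05) and cyp-44A1 (0.79, 1.95e-05). In 3 of them the difference reached 2-fold. In set B cyp-31A2 was higher by 1.41 (adjusted p = 7.76e-08), cyp-13B2 was higher by 1.18 (5.37e-05) and cyp-33B1 was lower by 2.05 (4.56e-06), 3 of 74 members where 8.81% of all probe sets were called at that limit. The genes cyp-31A2 and cyp-31A3 are known for their part in the lipid layer of the eggshell. On the 8 arrays of set A cyp-31A2 had a mean of 6.35 and on the 7 of set B one of 7.65. The difference of cyp-31A3 was 0.79 (adjusted p = 0.000103), under 2-fold. Of the 14 oocyte markers 9 were called higher in set B and none lower, where 3.16% and 5.65% of all probe sets were. The median difference over the 14 oocyte markers was 1.26. The part of these markers in the P450 result was not tested. Against the control, cyp-31A2 differed by −0.05, 0.18, −0.13 and 0.02, with no call. In the set-blocked fit these differences were −0.05, −0.29, −0.13 and −0.45, so that the sign turned at H3 0.2 and with RE, again with no call.

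**Figure D5:**
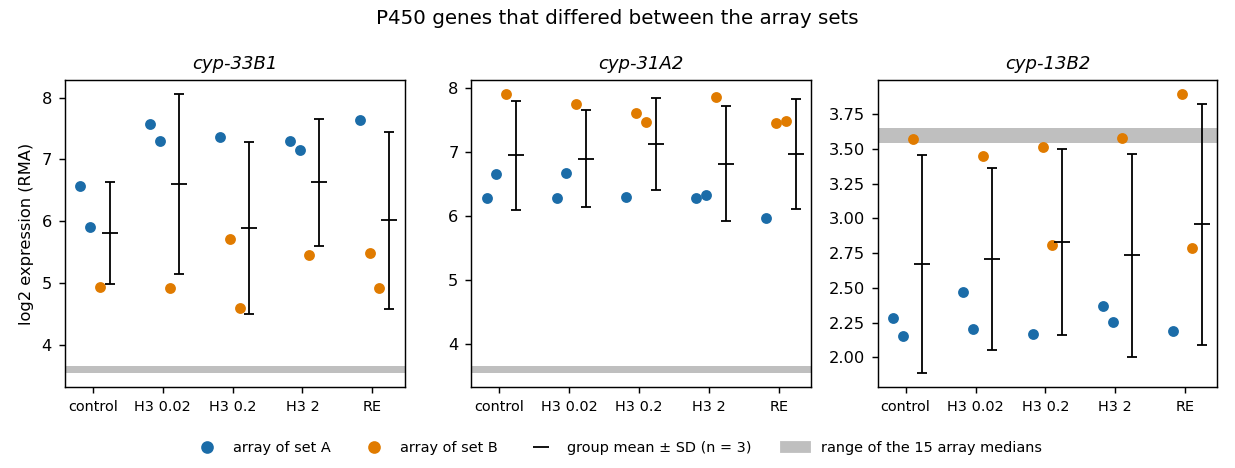
Log2 expression per array of the 3 genes called between the array sets, with blue points for set A, orange points for set B and bars for the group mean ± SD (n = 3). In all 5 groups cyp-33B1 is lower and cyp-31A2 higher on arrays of set B, and cyp-13B2 is higher, while no treatment was called against the control in any of the 3 genes.

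The crude extract RE and fraction H3 at 0.2 mg/mL were the pair with the same concentration by the sample titles. No member was called between them, nor was any of the 29317 probe sets (0% called), and at an unadjusted p under 0.05 none of the 74 genes was higher and 2 were lower with RE, where 2.22% of all probe sets passed that limit. For the genes called against the control the differences RE minus H3 0.2 were 0.06 for cyp-14A5 (−0.82 to 0.94), 0.09 for cyp-34A9 (−0.34 to 0.53), −0.12 for cyp-37B1 (−0.45 to 0.22) and 0.06 for cyp-25A2 (−0.52 to 0.65). For cyp-13A2 and cyp-34A10, each called in 1 of these treatments only, they were 0.13 (−0.36 to 0.63) and −0.11 (−0.68 to 0.46). The widest of these intervals, that of cyp-14A5, reaches 0.94 on the log2 scale. Between H3 2 and H3 0.02 no member was called either, against 0.0375% of all probe sets, and at an unadjusted p under 0.05 there were 3 members higher and 3 lower, where 4.39% of all probe sets passed that limit. The differences H3 2 minus H3 0.02 were 0.20 for cyp-14A5 (−0.68 to 1.07), −0.35 for cyp-34A9 (−0.78 to 0.08) and 0.00 for cyp-25A2 (−0.59 to 0.58).

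Partners and regulators of the P450 genes were read from lists of 8 and 15 genes. The reductase gene emb-8 stood at 9.54 in the control and differed by −0.15 to 0.01. The cytochrome b5 gene cytb-5.2 had log2 fold-changes of −0.38, −0.46, −0.60 and −0.51, with adjusted p = 0.00969 at H3 2 and 0.0368 with RE but under 2-fold, and cytb-5.1 had −0.48, −0.58, −0.67 and −0.57 with adjusted p of at least 0.0566. In limma none of the 8 was called, and 3, 2, 3 and 3 of them were lower at an unadjusted p under 0.05. That limit was passed by 7.18%, 10.6%, 12.9% and 9.38% of all probe sets, counted in either direction. The list of 8 includes daf-9, the P450 of dafachronic acid synthesis that the naming rule leaves out of the 74. Of the 15 regulators 13 were measured, including the nuclear receptor genes nhr-8, nhr-49 and nhr-176, the mediator subunit gene mdt-15, ahr-1, skn-1 and daf-16. None was called in any comparison with the control, and at an unadjusted p under 0.05 there were 1, 1, 2 and 0 higher and 1 lower, at H3 0.2. The shares of all probe sets at that limit are those given above for the list of 8. The median log2 fold-change of the 13 regulators was between −0.05 and 0.11 in the 4 treatments.

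Enzymes that conjugate the products of P450 reactions gave these counts. Of 67 UDP-glucuronosyltransferase genes 4, 7, 7 and 6 were called lower in H3 0.02, H3 0.2, H3 2 and RE, where 0.321%, 0.641%, 0.901% and 0.536% of all probe sets were, and 1 was called higher, at H3 2 (0.665%). Of 48 glutathione S-transferase genes 1, 1, 2 and 2 were called higher, where 0.304%, 0.46%, 0.665% and 0.399% of all probe sets were, and limma called none lower. At an unadjusted p under 0.05, 3, 4, 3 and 3 of them were higher and 5, 4, 3 and 5 were lower, where 7.18%, 10.6%, 12.9% and 9.38% of all probe sets passed that limit in either direction.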

How the data were processed

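Per the labels and the methods, the authors normalised the scanned arrays with RMA (named beside Affymetrix Expression Console and Partek, versions not given in the sources used here) and deposited 1 log2 expression value per probe set and array (29317 probe sets, 15 arrays), used here as deposited. The file names no genome build, so that coordinates are not given. Probe sets were named through the platform annotation (25546 with 1 gene, 646 with several, 3125 with none) and RefSeq.

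R 4.3.3 with limma 3.58.1 was used (lmFit with 1 mean per group, eBayes, 10 residual degrees of freedom, Benjamini-Hochberg within each of 6 comparisons), and the procedure was tested on simulated data. Figures used matplotlib. Alternatives were the array set or the replicate number as a block, other normalisations and filters, the methods' test, fewer arrays and each array left out. Arrays of the same replicate number deviated together (residual correlation of at least 0.421) in 4 comparisons, but not between the control and H3 0.2 or RE, where replicate 2 joins different array sets. Named genes are those called, the 5 highest means, the 3 most positive and 3 most negative differences per treatment among genes above the median, and a set chosen for known roles. The cyp-34A genes, cyp-14A1 to cyp-14A4, cyp-13B2, cyp-33C5 and cluster neighbours were named after their values were seen. Members and lists were chosen with earlier results of these data known. No probe or gene sequences were used here.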

Additional observations from a re-analysis of the deposited data

How the results depend on the processing

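No called gene changed direction under any alternative. The numbers of called P450 genes were 4, 5, 4 and 5 at H3 0.02, H3 0.2, H3 2 and with RE. Fitting only the 6 arrays of a comparison left 1, 2, 2 and 3. The methods' unmoderated test left 2, 3 and 3 at H3 0.02, H3 0.2 and with RE. Keeping probe sets at or above the median mean removed cyp-25A2 and cyp-34A10 from all 4 treatments and left 3 called genes with RE. Without a fold-change minimum there were 7 at H3 2. Set B alone, with 1 control array, called 0 in each treatment, and set A alone called 7 at H3 2; leaving out replicate 3 of both H3 0.2 and RE left 2 at H3 0.2 and 2 with RE. The fits by set and without both arrays were chosen after seeing the data. Leaving out 1 array at a time gave 2 to 5 genes at H3 0.02 and 3 to 4 in the other treatments, with cyp-34A9 and cyp-37B1 among them each time. The replicate block gave 3, 7, 5 and 6 genes. It lost cyp-25A2 at H3 0.02, and it added cyp-34A2 at H3 2. At H3 0.2 and with RE, where the numbers do not pair the arrays, it added cyp-34A2 at both and cyp-34A10 at H3 0.2. Between H3 2 and H3 0.02 and between RE and H3 0.2 the count was 0 in limma and in every alternative. A second probe set per gene could not be tried, since each gene has 1. Differences at levels below the array medians are limited by background, and no depth exists for arrays.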
